A study of Mus musculus with 70 samples.

Results

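Interleukin-1b (Il-1b) injected on its own was compared with PBS in MmSCs, the mesenchymal stromal cells of skeletal muscle. The comparison rests on 4 of the 70 RNA-seq libraries of the series: the 2 libraries titled for Il-1b at 2 h and the 2 titled for PBS, chosen by their titles alone. The Il-1b libraries are MmSCs sorted from the uninjured hindlimb muscle of C57BL/6J mice 2 h after an intraperitoneal injection of Il-1b. The PBS libraries are MmSCs of the same strain and site after an intraperitoneal injection of PBS, for which the labels give no time. Every sorted library held 1000 cells taken through 2 rounds of sorting. The sources used here give no dose, no age and no number of mice behind a library, so the spread between libraries may be technical. The p-values measure differences against that spread. For this comparison the spread was estimated within groups over all 21 libraries of the cytokine injection experiment, not over these 4 alone. The rest of the experiment entered as background: 2 libraries each for tumour necrosis factor (TNFa), oncostatin M (Osm) and Il-17A alone at 2 h in the same strain and site were set directly against Il-1b. Outside that experiment, 3 libraries of Il1b-KO MmSCs stand against 2 of Il1b-WT littermates, all 1 day after cardiotoxin injury of the hindlimb, and 3 of C57BL/6J MmSCs 1 day after that injury against 3 from uninjured muscle.

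Il-1b is an alarm cytokine that myeloid cells release early after tissue damage. It binds Il1r1, which pairs with Il1rap, and the adaptor Myd88 then gathers Irak kinases and Traf6; these switch on the IKK kinases, which free NF-kB dimers from their IkB inhibitors, and MAP kinases. NF-kB in turn drives chemokines, adhesion molecules and acute-phase proteins, together with its own inhibitors. In muscle, stromal cells are known as a source of growth factors and matrix for satellite cells and of chemokines after injury.

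The MmSC transcriptome differed broadly between the Il-1b libraries at 2 h and the PBS libraries. Of 15965 genes tested, 5288 passed an adjusted p of 0.05 (33.1%), 3107 of them higher (19.5%) and 2181 lower (13.7%), and the median log2 difference over all genes tested was -0.01. A difference of at least 3 on the log2 scale was reached by 309 of the genes called higher and 223 of those called lower, and one of at least 5 by 107 and 67. The libraries of the 2 groups did not overlap for 65.8% of the genes tested. A list of genes is therefore read against those shares. The 2 Il-1b libraries held 5752684 and 6536502 counts and the 2 PBS libraries 6686420 and 6255934. The Il-1b libraries had a count for 19950 and 19862 genes, against 23154 and 22891 in the PBS libraries. The repeat-like gene model Gm10800 took 0.359% and 0.401% of counts in the Il-1b libraries, against 1.412% and 1.644% in the PBS libraries. Neither trait was particular to Il-1b: the TNFa, Osm and Il-17A libraries had 19522 to 20931 genes and 0.398% to 0.706%. The pairs of Osm with another cytokine had 19285 to 21399 genes and 0.486% to 0.738%. A mix of 4 cytokines at 2 h lay between the single cytokines and PBS, with 21537 and 22524 genes and 0.869% and 1.327%. The 1 library of the mix at 4 h had 22431 genes and 0.937%. At 8 h the mix had 23095 and 22222 genes and 1.413% and 1.325%. Mitochondrial genes took 1.313% and 0.789% of counts with Il-1b, against 0.575% and 0.667% with PBS. The TNFa, Osm and Il-17A libraries had 0.865% to 1.057%. The labels name no batch, and a batch between these libraries and the cytokine cannot be told apart against PBS. The direct test against Il-17A, another 2 h group that shares no PBS library, is therefore given beside the main results. It uses the same 2 Il-1b libraries.

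Several of the genes that rose most, and several of the inhibitors that act on NF-kB itself, carry a match to the NF-kB consensus (the kappaB site) close to their start. The windows of 7 such genes are shown because each holds a match between 110 bases before the RefSeq start and 20 bases after it, and were picked for that. The consensus of 10 bases was searched on both strands as the pattern GGGRNNYYCC, with overlapping matches merged. In it R is A or G, Y is C or T and N is any base. Positions count from the first transcribed base. They lie, on build GRCm38.p6, at chr5:90891135-90891264 on the plus strand (Cxcl1), chr5:90903789-90903918 on the plus strand (Cxcl2), chr5:30013004-30013133 on the plus strand (Il6), chr12:55492628-55492757 on the minus strand (Nfkbia), chr10:19015391-19015520 on the minus strand (Tnfaip3, 1 of its 2 windows), chr11:54962921-54963050 on the minus strand (Tnip1) and chr3:142496824-142496953 on the plus strand (Gbp5). Each is printed 5′ to 3′ on the gene's strand, with the match in capitals.
Cxcl1: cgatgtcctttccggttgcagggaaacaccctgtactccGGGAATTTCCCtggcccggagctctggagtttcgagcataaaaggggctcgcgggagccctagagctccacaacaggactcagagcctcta
Cxcl2: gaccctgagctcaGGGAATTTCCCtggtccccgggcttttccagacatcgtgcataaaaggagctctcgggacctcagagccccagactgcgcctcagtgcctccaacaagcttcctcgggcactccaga
Il6: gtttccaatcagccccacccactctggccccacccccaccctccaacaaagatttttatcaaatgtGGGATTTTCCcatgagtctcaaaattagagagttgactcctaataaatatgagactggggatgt
Nfkbia: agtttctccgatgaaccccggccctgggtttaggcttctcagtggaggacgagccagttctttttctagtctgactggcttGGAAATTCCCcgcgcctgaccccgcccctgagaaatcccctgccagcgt
Tnfaip3: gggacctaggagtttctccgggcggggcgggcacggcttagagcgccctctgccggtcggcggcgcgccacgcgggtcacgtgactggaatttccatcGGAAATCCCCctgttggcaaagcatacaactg
Tnip1: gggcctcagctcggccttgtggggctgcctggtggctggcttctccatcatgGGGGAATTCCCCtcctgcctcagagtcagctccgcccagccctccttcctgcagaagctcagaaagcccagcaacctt
Gbp5: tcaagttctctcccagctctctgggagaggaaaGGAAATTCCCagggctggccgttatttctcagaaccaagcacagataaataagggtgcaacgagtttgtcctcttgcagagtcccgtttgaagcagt
Cxcl1 and Cxcl2 hold the same 11 letters, at positions -71 to -61 and -97 to -87. In the other windows the matches lie at -44 to -35 (Il6), -29 to -20 (Nfkbia), -12 to -3 (Tnfaip3), -58 to -47 (Tnip1) and -77 to -68 (Gbp5). Over all 32851 promoter windows of the RefSeq table, which run from 250 bases before to 50 after a start, 2779 held a match (8.46%). Of 219 protein-coding genes called higher by at least 3 on the log2 scale, 165 had a window (75.3%). This is under the 80% set as the minimum for comparing shares. Whether matches were more frequent among the genes that rose was therefore not tested. Whether NF-kB bound any of these windows was not measured.

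The receptor for the injected cytokine rose. Il1r1, the signalling receptor, stood at 234 and 156 CPM (read counts scaled to a common library total) with Il-1b, against 73.4 and 62.0 CPM with PBS. Both Il-1b libraries lay above both PBS libraries, a log2 difference of 1.52 ± 0.20 (SE; adjusted p = 6.49e-06, edgeR quasi-likelihood test), and 2.11 against Il-17A. Its partner Il1rap lay between 17.1 and 30.3 CPM over the 4 libraries, lower in both Il-1b libraries than in either PBS library, and was not called (adjusted p = 0.168); nor was the decoy receptor Il1r2, at 46.6 and 19.6 CPM with Il-1b, against 20.4 and 13.3 CPM with PBS, except where genes with low counts were kept in the fit (adjusted p = 0.000995). Il1rl1, the Il-33 receptor, was called higher by 4.47, a value that dropped to 1.20 without the first Il-1b library (adjusted p = 0.528) and stood at 3.53 without the second PBS library (adjusted p = 0.0861). Of 6 family receptors tested, 3 were called higher, and 1 where either of those libraries was left out. Il33, the ligand of Il1rl1 and an alarm cytokine kept in the nucleus, reached 964 and 423 CPM with Il-1b, against 107 and 130 CPM with PBS, a log2 rise of 2.55 ± 0.27 (adjusted p = 2.4e-07). Il18bp, a decoy for Il-18, was the other ligand-side gene called, at 1.44, of 4 tested. Transcripts of Il1a and Il1b themselves had 0 counts in all 4 libraries, so the MmSCs showed no message of the injected cytokine at this depth.

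Between receptor and kinases the change was selective. Of 20 relay genes tested, 7 were called higher and 1 lower, with a median log2 difference of 0.21; without the second PBS library 4 were called higher. Myd88 had 277 and 340 CPM with Il-1b, against 52.6 and 55.8 CPM with PBS, and rose by 2.51 ± 0.14 (adjusted p = 2.74e-11). Irak3, an inhibitory member of the Irak family, stood at 872 and 1145 CPM with Il-1b, against 116 and 106 CPM with PBS, and rose by 3.18 ± 0.20. Irak2 rose by 3.36 and Map3k8, the kinase Tpl2 of the ERK branch, by 3.44. Irak1, Irak4, Traf6 and Map3k7 (Tak1), which carry the signal in resting cells, lay between 0.03 and 0.21 on the log2 scale and were not called.

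All 10 tested genes for NF-kB subunits and IkB proteins rose, with a median log2 difference of 3.82. Nfkbia, the inhibitor IkBa that NF-kB itself induces, had 1506 and 2011 CPM with Il-1b, against 116 and 120 CPM with PBS, and rose by 3.90 ± 0.20 (adjusted p = 9.65e-12). Nfkbiz, a nuclear IkB that helps switch on secondary response genes, reached 415 and 621 CPM with Il-1b, against 16.99 and 6.94 CPM with PBS, the highest difference of the list at 5.42 ± 0.28. The lowest was that of Rela, the p65 subunit, at 136 and 234 CPM with Il-1b, against 90.04 and 95.2 CPM with PBS (1.00 ± 0.29; adjusted p = 0.0107), and its call was lost without the first PBS library (0.92; adjusted p = 0.078), the second (1.00; 0.0579) or the second Il-1b library (0.56; 0.206). Between them stood Bcl3 (4.12), Nfkbie (3.94), Relb (3.90), Nfkb2 (3.75), Rel (3.56), Nfkb1 (2.61) and Nfkbib (2.54). All 10 were also called higher against Il-17A, Rela with an adjusted p of up to 0.0613 where 1 library was left out.

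Genes that shut the response down rose with it. Of 17 feedback inhibitors and mRNA decay factors tested, 13 were called higher and 1 lower, with a median of 1.46. Tnfaip3, the ubiquitin editor A20 that stops signalling upstream of IKK, stood at 467 and 883 CPM with Il-1b, against 18.9 and 12.4 CPM with PBS, and rose by 5.43 ± 0.35 (adjusted p = 2.25e-10). Its partner Tnip1 reached 422 and 663 CPM with Il-1b, against 28.7 and 34.0 CPM with PBS (4.11 ± 0.21). Zc3h12a, the nuclease regnase-1 that cuts cytokine mRNAs, had 73.8 and 135 CPM with Il-1b, against 6.98 and 6.12 CPM with PBS (3.99 ± 0.34). Socs2 rose by 2.97, Trib1 by 2.71 and Tank by 1.65. The mRNA decay factors split: Zfp36, which is tristetraprolin, rose by 1.19 and Zfp36l1 by 1.46, while Zfp36l2 fell to 4.06 and 1.86 CPM with Il-1b, against 17.1 and 16.9 CPM with PBS (-2.52 ± 0.38; adjusted p = 2.95e-05). Of 9 dual-specificity phosphatases, which switch off MAP kinases, 4 were called higher and 2 lower, against 0 to 2 higher and 0 or 1 lower where any 1 library was left out; Dusp1, the best known of them, had 409 and 243 CPM with Il-1b, against 432 and 266 CPM with PBS.

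**Figure D1:**
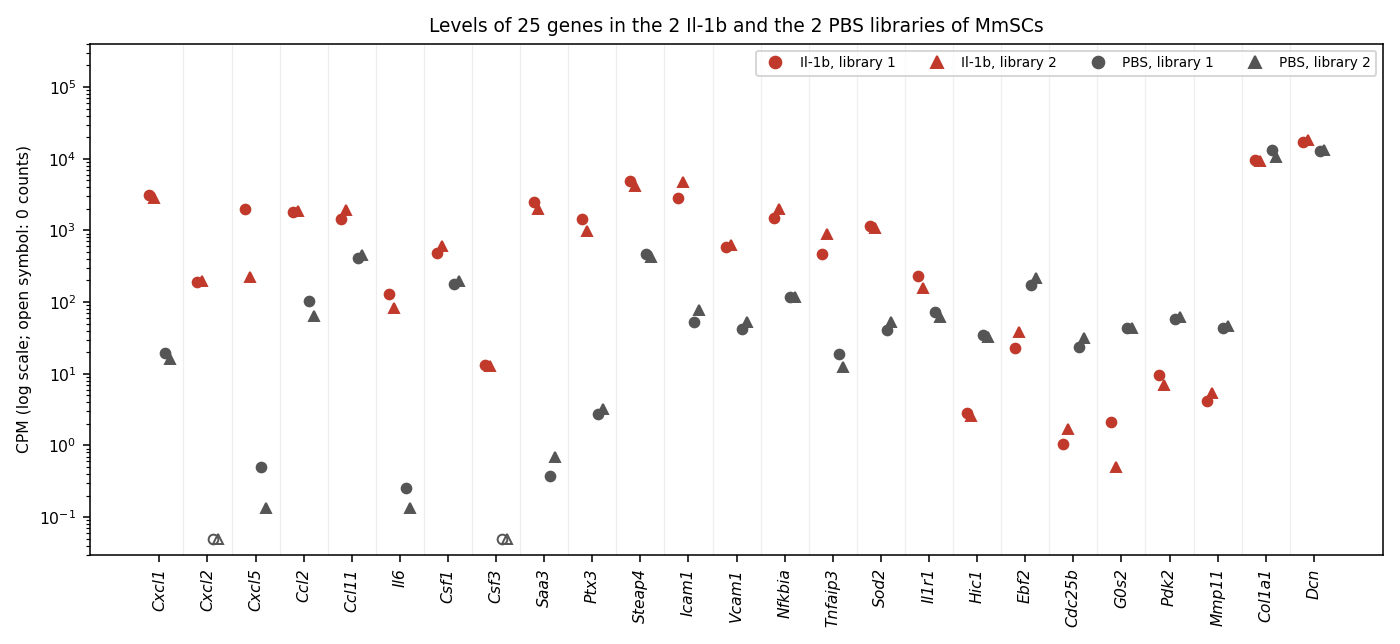
Level of 25 genes in each of the 2 Il-1b libraries and the 2 PBS libraries, in CPM on a log axis; open symbols mark libraries with 0 counts. The Il-1b libraries lie above the PBS libraries for the chemokines, acute-phase genes, adhesion molecules and NF-kB genes, below them for Hic1, Ebf2, Cdc25b, G0s2, Pdk2 and Mmp11, and close to them for Col1a1.

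Chemokines were among the genes with the highest differences. Of 11 CXC chemokines tested, 8 were called higher and none lower, with a median of 2.78, and the same counts held for 11 CC and CX3C chemokines, with a median of 2.59. Cxcl1, a neutrophil attractant, had 3084 and 2810 CPM with Il-1b, against 19.5 and 15.9 CPM with PBS, and rose by 7.37 ± 0.25 (adjusted p = 7.53e-14). Its relative Cxcl2 gave 1086 and 1156 counts with Il-1b and 0 in either PBS library, at least 491.9-fold higher with 3 counts per PBS library as the floor. Other neutrophil attractants ranged more between libraries. Cxcl5 had 1963 and 221 CPM with Il-1b, against 0.507 and 0.136 CPM with PBS, and Cxcl3 had 66.7 and 0.338 CPM with Il-1b and 0 counts in either PBS library. Over both libraries Cxcl3 was at least 83.4-fold higher, on the same floor, but the second Il-1b library held 2 of the 380 counts and the call was lost without the first (adjusted p = 0.151). Among attractants of other cells, Cxcl10, a T cell attractant, stood at 22.9 and 49.1 CPM with Il-1b, against 1.14 and 0.136 CPM with PBS (5.74 ± 0.62). Cxcl16 rose by 2.25. Cxcl14, which MmSCs express at rest, was not called, with 1426 and 1155 CPM with Il-1b, against 1233 and 1032 CPM with PBS.

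Monocyte and eosinophil attractants rose as well. Ccl7 reached 770 and 330 CPM with Il-1b, against 12.8 and 17.3 CPM with PBS, and rose by 5.19 ± 0.38 (adjusted p = 1.72e-09). Ccl11, eotaxin, was already at 412 and 454 CPM with PBS and stood at 1438 and 1897 CPM with Il-1b, a rise of 1.94 ± 0.18. Ccl19, a ligand of Ccr7 on dendritic cells and T cells, had 17.1 and 17.4 CPM with Il-1b, against 0.381 and 0.408 CPM with PBS (5.39 ± 0.48). The 2 libraries of each group lay close for Ccl19 and Ccl11. For Ccl5 and Ccl20, called at adjusted p of 0.0175 and 0.0478, 1 Il-1b library carried nearly all of the counts: 2 and 34 for Ccl5, and 31 and 0 for Ccl20. Neither call held where either PBS library was left out (adjusted p between 0.0593 and 0.171), nor that of Ccl20 with DESeq2 (0.485) or with the replicate number as a block (0.0783), nor that of Ccl5 without the second Il-1b library (0.50). Cx3cl1, a membrane-bound chemokine, rose by 1.84 and Ccl8 by 2.59.

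Among 15 cytokines and colony-stimulating factors tested, 8 were called higher and none lower (median 1.55). Il6 gave 743 and 494 counts with Il-1b, against 2 and 1 with PBS, 543 times as many after scaling, with a 95% interval of 185 to 2636 that covers counting error only. Csf3, the granulocyte factor G-CSF, had 76 counts in each Il-1b library and 0 in each PBS library, at least 33.4-fold higher. Csf1, the macrophage factor, stood at 490 and 611 CPM with Il-1b, against 177 and 198 CPM with PBS (1.55 ± 0.16; adjusted p = 1.73e-07), and Il34, the other ligand of its receptor, rose by 2.40. Il7, a lymphocyte survival factor, had 45.4 and 45.5 CPM with Il-1b, against 1.52 and 3.13 CPM with PBS (4.29 ± 0.36). Il15 rose by 1.60 and Tslp, which acts on dendritic cells and type 2 lymphocytes, by 2.09. The libraries of each group lay close for Csf3 and Il7. Of the other Il6 family members tested, none was called: Lif, for one, had 13.8 and 6.60 CPM with Il-1b, against 11.03 and 8.98 CPM with PBS. Tnf had 4 and 8 counts with Il-1b, against 2 and 2 with PBS, and was too low to test.

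Acute-phase and antimicrobial genes gave 15 called higher and none lower of 19 tested, with a median of 3.31. Ptx3, a pentraxin that opsonises microbes, had 1460 and 982 CPM with Il-1b, against 2.79 and 3.26 CPM with PBS, and rose by 8.65 ± 0.39 (adjusted p = 1.59e-12). Saa3, a serum amyloid A made outside the liver, had 2477 and 2020 CPM with Il-1b, against 0.381 and 0.680 CPM with PBS (12.01 ± 0.84). Lcn2, which binds bacterial siderophores, stood at 244 and 163 CPM with Il-1b, against 3.42 and 0.136 CPM with PBS (6.78 ± 0.71). Slc39a14, the zinc and iron importer Zip14, reached 505 and 422 CPM with Il-1b, against 18.6 and 18.6 CPM with PBS (4.63 ± 0.16), and Steap4, a metalloreductase, 4948 and 4107 CPM with Il-1b, against 473 and 422 CPM with PBS (3.34 ± 0.16). Serpina3n rose by 3.48, Cfb of the alternative complement pathway by 3.31 and Lbp, which carries lipopolysaccharide, by 2.26. C1s1 of the classical complement pathway rose by 0.52. Saa1 and Saa2 were called higher by 7.16 and 7.88, but they are near-identical copies, so their split between the genes is uncertain; the same holds for Csf2rb2 and Csf2rb, chains of receptors for Il-3 and GM-CSF, at 27.2 and 57.7 CPM and at 2.47 and 5.08 CPM with Il-1b, against 0 and 0.272 CPM and 0 and 0 CPM with PBS; the call of Csf2rb was lost without either PBS library or the second Il-1b library (adjusted p = 0.115 to 0.124).

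The 15 genes with the highest differences, among called genes averaging at least 3 on the log2 CPM scale whose groups kept apart, were Cxcl2, Saa3, Cxcl5, Tmem252, Acod1, Il6, Rnd1, Ptx3, Csf2rb2, Nos2, Saa2, Csf2rb, Olfr56, Cxcl1 and Saa1. Apart from the chemokines, acute-phase genes and Il6, the clearest was Rnd1, a small GTPase that loosens the actin skeleton, at 647 and 819 CPM with Il-1b, against 0.761 and 2.31 CPM with PBS (8.90 ± 0.36; adjusted p = 5.08e-13). Acod1, the enzyme that makes itaconate in macrophages, had 24 and 101 counts with Il-1b and none in either PBS library, at least 27.4-fold higher. Nos2 and Olfr56 are taken up with the nitric oxide and interferon genes.

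Leukocyte adhesion molecules had 5 called higher and none lower of 9 tested. Icam1, the ligand of leukocyte beta2 integrins, stood at 2868 and 4759 CPM with Il-1b, against 52.2 and 77.5 CPM with PBS, and rose by 5.88 ± 0.27 (adjusted p = 1.65e-12). Vcam1, the ligand of the integrin VLA-4, had 581 and 625 CPM with Il-1b, against 42.4 and 52.2 CPM with PBS (3.67 ± 0.21). Cd44, the hyaluronan receptor, reached 1164 and 1271 CPM with Il-1b, against 121 and 101 CPM with PBS (3.46 ± 0.14). Sele, a selectin that is usually endothelial, was called at a low level, 9.35 and 20.3 CPM with Il-1b, against 0.127 and 0.408 CPM with PBS. Of the 8 endothelial markers, 4 had 0 counts in each Il-1b library, against 2 and 4 in the PBS libraries.

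Genes that protect cells from TNF-type death and oxidative stress rose, 12 of 16 tested and none lower (median 2.28). Birc3 and Birc2, ubiquitin ligases that hold back cell death, rose by 4.04 and 3.10: Birc3 had 450 and 508 CPM with Il-1b, against 26.9 and 31.2 CPM with PBS (adjusted p = 8.6e-13). Sod2, the mitochondrial superoxide dismutase, stood at 1135 and 1094 CPM with Il-1b, against 41.2 and 52.1 CPM with PBS (4.58 ± 0.19). Slc7a11, the cystine importer that feeds glutathione, had 13.1 and 13.7 CPM with Il-1b, against 0.507 and 0.816 CPM with PBS (4.31 ± 0.57). Gadd45b rose by 3.77 and Fas by 2.97. Nos2, the inducible nitric oxide synthase, had 121 and 318 counts with Il-1b, against 1 and 1 with PBS. In the same list of 16 prostaglandin and nitric oxide genes, where 6 were called higher and 2 lower (1 lower without either PBS library or the second Il-1b library), Ptgs2 (Cox-2) had 52.9 and 29.4 CPM with Il-1b, against 21.3 and 13.3 CPM with PBS, a smaller rise of 1.24 ± 0.34 (adjusted p = 0.00754) that was not called without the second PBS library (0.91; adjusted p = 0.118) or the first Il-1b library (0.76; 0.161). Ptges, the prostaglandin E synthase, rose by 1.53 and the receptor Ptger4 by 2.30, while Hpgd, which breaks prostaglandins down, fell to 2.65 and 0.169 CPM with Il-1b, against 26.2 and 20.1 CPM with PBS (-4.04 ± 0.73; adjusted p = 0.000207).

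**Figure D2:**
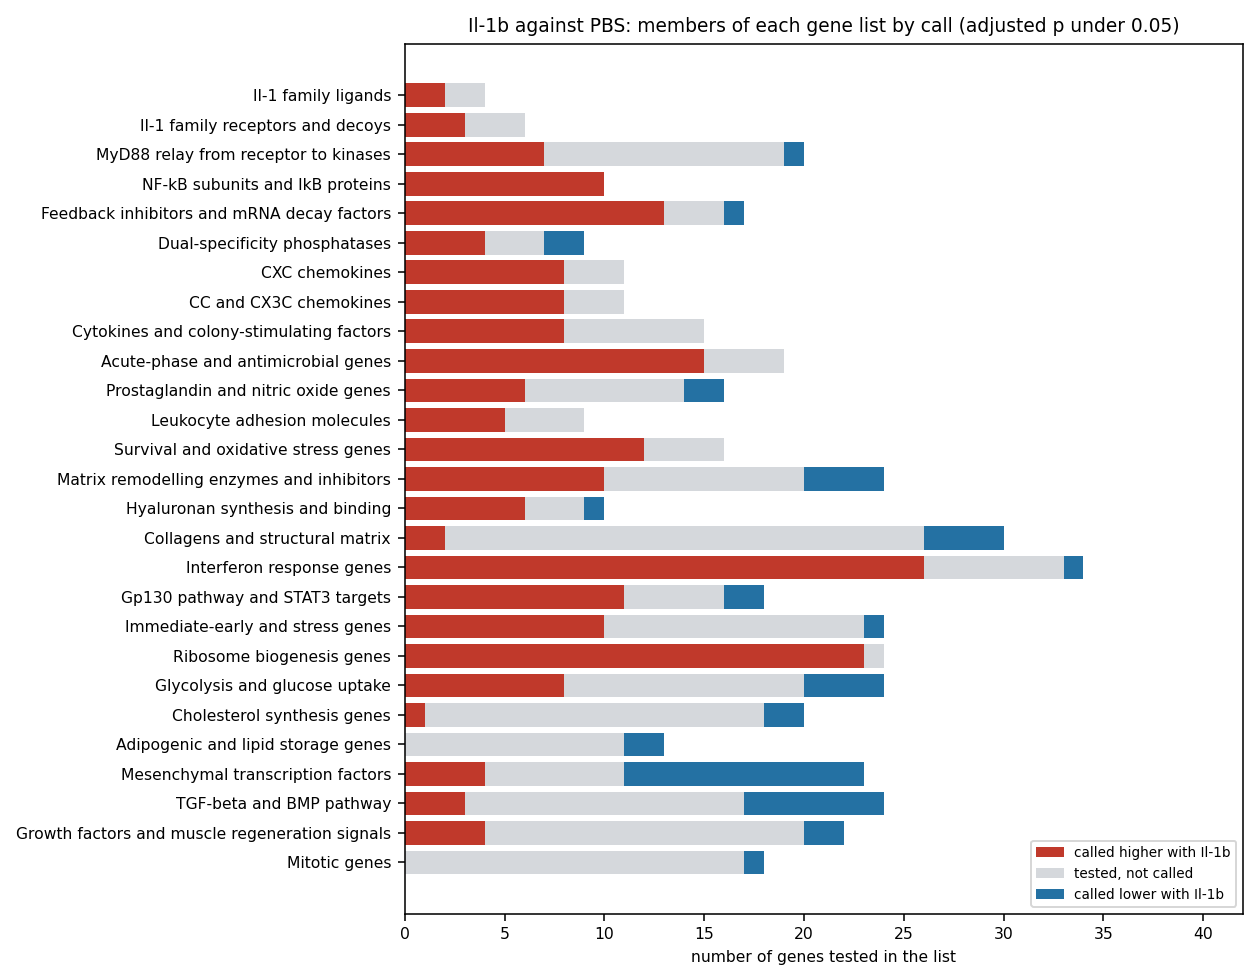
Members called higher, not called and called lower at adjusted p under 0.05 for Il-1b against PBS in each of 27 gene lists, as the number of tested genes. All 10 NF-kB and IkB genes and 23 of 24 ribosome biogenesis genes are called higher, while 12 of 23 mesenchymal transcription factors are called lower and most of the 30 collagen and structural matrix genes are not called.

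Of 30 collagens and structural matrix genes, 2 were called higher and 4 lower (median -0.07): Col1a1 had 9597 and 9207 CPM with Il-1b, against 13400 and 10580 CPM with PBS, and was not called (adjusted p = 0.352). These counts were 1 higher and 0 lower without the first Il-1b library; where genes with low counts were kept in the fit they were 4 and 8, and Col1a1 was called lower (-0.39; adjusted p = 0.00159). Eln, elastin, fell to 94.4 and 146 CPM with Il-1b, against 316 and 336 CPM with PBS (-1.44 ± 0.37; -1.16 without the first Il-1b library, adjusted p = 0.0717), and the proteoglycan Lum was called higher by 0.61 (0.45 without the first PBS library, adjusted p = 0.14, and 0.48 without the first Il-1b library, 0.0817). Of 24 remodelling enzymes and inhibitors, 10 were called higher and 4 lower (2 lower without the second Il-1b library). The aggrecanase Adamts4 had 343 and 378 CPM with Il-1b, against 48.7 and 19.4 CPM with PBS, and rose by 3.40 ± 0.31 (adjusted p = 3.05e-08). Adamts1 rose by 2.10 and the urokinase receptor Plaur by 3.13. Mmp11 fell to 4.24 and 5.42 CPM with Il-1b, against 43.1 and 46.2 CPM with PBS (-3.21 ± 0.24). Adamts5, the other main aggrecanase, was lower than PBS by 0.52 but higher than Il-17A by 0.53, both called, so its direction turned with the group it was set against. The call against PBS was lost without the first Il-1b library (-0.36; adjusted p = 0.105), and that against Il-17A without the second Il-1b library or the second Il-17A library (adjusted p up to 0.139). Hyaluronan genes had 6 higher and 1 lower of 10: the synthase Has1 stood at 476 and 820 CPM with Il-1b, against 25.7 and 16.5 CPM with PBS (4.94 ± 0.44), Tnfaip6, which links proteins onto hyaluronan, rose by 4.82 and Ugdh, which makes its sugar precursor, by 2.39, and Hyal1, a hyaluronidase, fell by 1.58.

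Interferon response genes were called higher in 26 of 34 cases and lower in 1 (median 1.55), and their differences were very uneven. The guanylate-binding protein Gbp5 had 210 and 325 CPM with Il-1b, against 2.66 and 1.77 CPM with PBS, and rose by 6.89 ± 0.30 (adjusted p = 9.72e-13). Gbp2 rose by 4.35, Irf8 by 4.50, Gbp7 by 3.14 and Irf1, a transcription factor that NF-kB induces, by 2.30. Ifi47, an immunity-related GTPase, rose by 6.19, with reads that its overlapping neighbour Olfr56 shares on the same strand. Ifit1, an antiviral RNA-binding protein, had 53.0 and 44.3 CPM with Il-1b, against 21.6 and 16.5 CPM with PBS (1.35 ± 0.25), Isg15 rose by 1.90 at under 20 CPM, and Usp18 was not called. Ifit2 was the listed member called lower, at 17.1 and 13.0 CPM with Il-1b, against 28.2 and 39.3 CPM with PBS (-1.16 ± 0.22, adjusted p = 0.00029). Cmpk2, an interferon response gene outside the list, was also called lower (-1.04, adjusted p = 0.000283).

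In the pathway of gp130, the shared receptor chain of Il-6 and oncostatin M, 11 of 18 genes were called higher and 2 lower. Osmr, the oncostatin M receptor, stood at 1088 and 942 CPM with Il-1b, against 161 and 137 CPM with PBS, and rose by 2.77 ± 0.16 (adjusted p = 4.32e-11). Stat3 rose by 1.62, Jak2 by 2.14 and Pim1 by 2.95, whereas Il6ra, the Il-6 binding chain, had 42.9 and 51.3 CPM with Il-1b, against 45.0 and 36.7 CPM with PBS. Immediate-early genes, which turn on within minutes of a stimulus, gave 10 higher and 1 lower of 24, and 6 higher and 2 lower without the second PBS library. Fos and Jun were not called at 2 h: Fos had 148 and 100 CPM with Il-1b, against 149 and 76.7 CPM with PBS. Myc reached 407 and 565 CPM with Il-1b, against 61.4 and 44.5 CPM with PBS (3.20 ± 0.19), and Fosl1 rose by 3.93.

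Ribosome biogenesis, a set of nucleolar genes that Myc is known to drive, rose almost throughout: 23 of 24 genes were called higher and none lower, with a median of 2.34. Gnl3, nucleostemin, had 315 and 228 CPM with Il-1b, against 27.5 and 30.5 CPM with PBS (3.22 ± 0.15; adjusted p = 3.55e-12), and Nop56, a core protein of box C/D particles, 442 and 404 CPM with Il-1b, against 60.1 and 56.3 CPM with PBS (2.86 ± 0.14). Both host small nucleolar RNAs in their introns, and gene models of these share their exons. Ddx21 rose by 2.73 and Polr1b, a subunit of RNA polymerase I, by 2.40; Fbl, fibrillarin, was the gene not called. All 24 were called higher against Il-17A. Of 24 glycolysis genes, 8 were called higher (5 without the second PBS library) and 4 lower. Pfkfb3, which makes the activator of phosphofructokinase, stood at 169 and 241 CPM with Il-1b, against 5.20 and 8.16 CPM with PBS (4.94 ± 0.25), Hk2 rose by 3.82 and Ldha by 2.07, whereas Pdk2, a kinase that holds back pyruvate dehydrogenase, fell to 9.71 and 6.94 CPM with Il-1b, against 58.3 and 61.2 CPM with PBS (-2.85 ± 0.27). Gapdh, Pkm and Eno1 were not called. Of 20 cholesterol synthesis genes, 1 was called higher and 2 lower against PBS (4 lower with DESeq2 or with low-count genes kept); against Il-17A the counts were 8 higher and 2 lower. Of 13 adipogenic and lipid storage genes, none was called higher and 2 lower, G0s2 and the lipid droplet protein Plin2, which had 55.2 and 38.6 CPM with Il-1b, against 101 and 77.0 CPM with PBS (-0.93 ± 0.26). The call of Plin2 was lost without the first PBS library (-0.75; adjusted p = 0.0828) or the second Il-1b library (-0.69; 0.105), which left 1 gene called lower.

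Among the genes that fell most, G0s2, an inhibitor of lipolysis, had 2.12 and 0.508 CPM with Il-1b, against 44.1 and 43.0 CPM with PBS (-5.05 ± 0.56; adjusted p = 7.82e-07). Phlda3, a p53 target that holds back Akt, fell to 2.12 and 1.35 CPM with Il-1b, against 52.8 and 53.5 CPM with PBS (-4.93 ± 0.50). Adam19, a membrane metalloprotease, stood at 13.1 and 5.42 CPM with Il-1b, against 147 and 148 CPM with PBS (-4.00 ± 0.29). In each of these the groups were far apart and the PBS libraries nearly equal. The other genes with the lowest differences were Ccdc28b, Cdc25b, Nynrin, Card10, Prr33, Gpsm2, Arhgap20, Pthlh, Hic1, Slc9a3r2 and Fam13c, between -4.97 and -3.55. All 14 genes named in this way were also called lower against Il-17A (9.54% over all genes). That test reuses the 2 Il-1b libraries in which these genes were picked as low, so it is no independent check of them. Pthlh, parathyroid hormone-related protein, had 2.12 and 5.58 CPM with Il-1b, against 47.6 and 50.5 CPM with PBS.

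Of 23 mesenchymal transcription factors, 12 were called lower and 4 higher (median -0.70), against 13.7% and 19.5% over all genes. Hic1, a repressor that marks quiescent mesenchymal progenitors of muscle, fell to 2.82 and 2.54 CPM with Il-1b, against 34.6 and 33.0 CPM with PBS (-3.65 ± 0.43; adjusted p = 1.28e-06). Ebf2 fell to 22.9 and 38.1 CPM with Il-1b, against 172 and 217 CPM with PBS (-2.67 ± 0.23), and Osr2 and Gli2, an effector of hedgehog signalling, fell by 2.51 and 2.00. Tbx5 fell to 0.353 and 2.20 CPM with Il-1b, against 10.4 and 14.3 CPM with PBS (-3.24 ± 0.76). Prrx1, Nfia, Nfix and Tcf4 fell by less than 1. Osr1, the paralogue of Osr2, went the other way, at 576 and 535 CPM with Il-1b, against 94.6 and 83.2 CPM with PBS (2.64 ± 0.19; adjusted p = 9.51e-10), and Tbx15 rose by 0.99; the count called higher was 2 without the first PBS library or the second Il-1b library. Against Il-17A, 11 of the 23 were called lower (7 without the first Il-1b library, 6 without the second Il-17A library) and 3 higher. Among 24 genes of the TGF-beta and BMP pathway 7 were called lower (4 without the first PBS library, 3 without the first Il-1b library) and 3 higher; Bmp4 fell by 0.94 and Id3, a target of BMP signalling, rose by 1.54. Of 22 growth factors, 4 were called higher (2 without either PBS library or the first Il-1b library) and 2 lower (1 without the second PBS library or the second Il-1b library, 4 with low-count genes kept): Fgf10, which guides epithelial and fat cell growth, fell to 2.12 and 1.35 CPM with Il-1b, against 6.60 and 12.9 CPM with PBS (-2.48 ± 0.59).

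The markers of the sorted population were high in both groups. The 17 MmSC markers summed to 150500 and 180600 CPM with Il-1b, against 148200 and 148900 CPM with PBS. Of them 5 were called higher, among them Ly6a, which encodes Sca-1 (0.81), and 2 lower, Cd248 (-1.46) and Pdgfrb (-1.21); the count called higher was 2 without the first PBS library and that called lower 4 without the second Il-1b library. Pdgfra had 795 and 673 CPM with Il-1b, against 866 and 859 CPM with PBS. The 12 pan-leukocyte and macrophage markers summed to 9.71 and 7.62 CPM with Il-1b, against 4.95 and 3.95 CPM with PBS, with Adgre1, Itgam and Tyrobp at 0 in all 4 libraries; the 8 neutrophil markers summed to 2.65 and 2.37 CPM, against 0.634 and 1.63 CPM, with Ly6g and Retnlg at 0, and the 8 lymphocyte markers to 2.29 and 0.677 CPM, against 1.40 and 0.272 CPM. Only 2 of the pan-leukocyte and macrophage markers, 1 neutrophil marker and 1 lymphocyte marker had enough counts to be tested. None of these was called, and the others were too low to be called either way. Endothelial markers summed to 112 and 153 CPM with Il-1b, against 216 and 266 CPM with PBS, nearly all of it Tek, which fell by 0.86, and satellite cell markers to 588 and 636 CPM, against 49.0 and 58.6 CPM, nearly all of it Vcam1, with Myf5 and Myod1 at 0 in every library. Pericyte, Schwann cell and tenocyte markers had none called; where low-count genes were kept, 2 pericyte genes and 1 Schwann cell gene were called lower and 3 tenocyte genes higher. Tenocyte markers summed to 1641 and 1022 CPM with Il-1b, against 957.4 and 543.4 CPM with PBS, with Scx at 0 in all 4 libraries; Schwann cell markers to 516.4 and 855.8 CPM with Il-1b, against 965.9 and 947.8 CPM with PBS, and pericyte markers to 91.42 and 164.5 CPM, against 138.1 and 116.7 CPM. The part of these cells in the results was not tested. Of the myofibre genes, 3 of 7, Acta1, Ckm and Mylpf, were called higher by 1.14 to 1.70 against PBS and not against Il-17A; without the second Il-1b library none of the 3 was called (0.61 to 1.06). The 9 myofibre markers summed to 95.48 and 189.4 CPM with Il-1b, against 54.53 and 75.76 CPM with PBS. In pooled cells, fewer cells of a type and less RNA per cell cannot be told apart. Mitotic genes were low throughout and higher in the first PBS library than in the second for all 18 genes but Cdc25b; apart from that gene none was called, while 8 were called lower where low-count genes were kept in the fit.

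Set directly against TNFa, the other strong NF-kB activator, Il-1b gave 1649 called genes (10.3%), 1160 higher (7.27%) and 489 lower (3.06%). Cxcl1 stood at 3084 and 2810 CPM with Il-1b and 307 and 350 CPM with TNFa, a log2 difference of 3.17 ± 0.20 (adjusted p = 6.58e-09). Rnd1 had 647 and 819 CPM with Il-1b and 24.7 and 43.7 CPM with TNFa (4.42 ± 0.26), and Il6 131 and 83.6 CPM with Il-1b and 12.5 and 11.2 CPM with TNFa (3.18 ± 0.29). Both cytokines gave high levels of Ccl2, the main monocyte attractant, with 1802 and 1877 CPM with Il-1b and 993 and 2430 CPM with TNFa; the difference of 0.10 ± 0.38 was not called. The NF-kB and IkB genes were called higher with Il-1b in 8 of 10 cases, by a median of 0.67; the count was 3 without the second Il-1b library, 2 without the first TNFa library and 3 where only these 2 groups were fitted, and Nfkbiz and Rel were called in all 4 fits that left out a library. Nfkbia had 1506 and 2011 CPM with Il-1b and 890 and 1063 CPM with TNFa (0.85), with an adjusted p of up to 0.0744 in those 4 fits. Of 19 acute-phase genes 12 were higher, among them Lcn2 (5.04), and of 24 ribosome biogenesis genes 21 were higher, with none lower in either list. Rin2 was among the genes lower with Il-1b, at 12.9 and 17.8 CPM, against 77.8 and 73.2 CPM with TNFa. Where only the 4 libraries of these 2 groups were fitted, the count of called genes fell to 602. It was 918 without the first Il-1b library and 798 and 784 without the first and the second TNFa library.

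**Figure D3:**
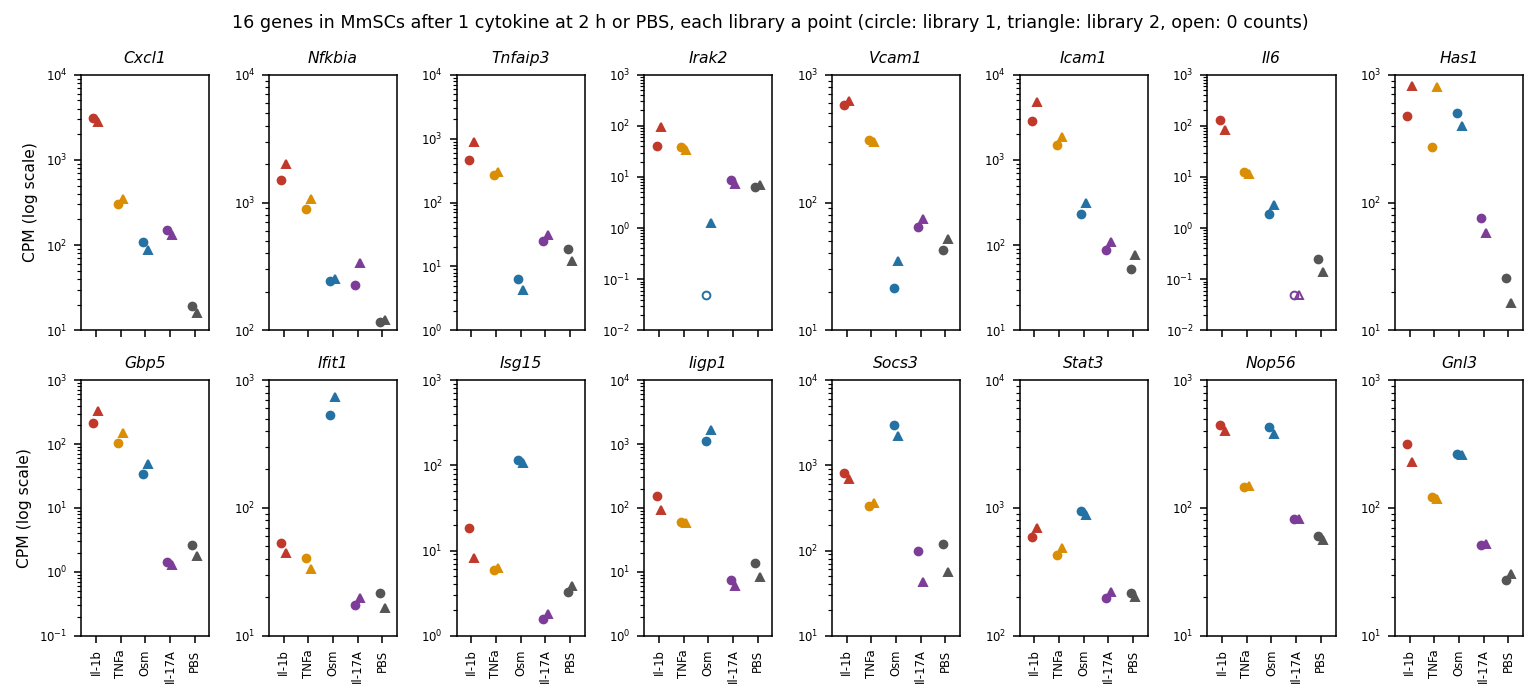
Level of 16 genes in each library injected with Il-1b, TNFa, Osm, Il-17A or PBS, in CPM on a log axis. Cxcl1 and Il6 are highest with Il-1b, and Ifit1, Isg15 and Socs3 are highest with Osm.

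Against Osm, which signals through gp130 and STAT3 and not through Myd88, 1540 genes were called (9.65%), 910 higher (5.7%) and 630 lower (3.95%); without the second Il-1b library 1010 were called. The NF-kB and IkB genes were higher with Il-1b in 9 of 10 cases, by a median of 2.79. Vcam1 had 581 and 625 CPM with Il-1b and 21.4 and 34.6 CPM with Osm, a difference of 4.43 ± 0.22 (adjusted p = 4.31e-11). Interferon response genes ran the other way: 27 of 34 were lower with Il-1b than with Osm and 4 higher, by a median of -2.10. Ifit1 stood at 53.0 and 44.3 CPM with Il-1b and 532 and 731 CPM with Osm (-3.70 ± 0.25), whereas Gbp5 had 210 and 325 CPM with Il-1b and 34.6 and 49.2 CPM with Osm (2.67 ± 0.22). Socs3 was lower with Il-1b by 1.78, and Fgl2, a secreted immune regulator, had 532 and 308 CPM with Il-1b and 8114 and 6783 CPM with Osm (-4.15 ± 0.27). Ribosome biogenesis genes reached like levels: Nop56 had 442 and 404 CPM with Il-1b and 427 and 379 CPM with Osm, 1 of 24 genes was called, and the median difference was -0.05.

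Against Il-17A, for which 790 genes were called against PBS (4.95%), Il-1b gave 4054 called genes (25.4%), 2531 higher (15.9%) and 1523 lower (9.54%); without the first Il-17A library 2670 were called. Cxcl1 had 3084 and 2810 CPM with Il-1b and 149 and 132 CPM with Il-17A (4.39 ± 0.22; adjusted p = 7.85e-12). Gbp5 had 210 and 325 CPM with Il-1b and 1.41 and 1.26 CPM with Il-17A (7.62 ± 0.33). Rab3il1 was among the genes lower with Il-1b, at 7.41 and 20.3 CPM, against 197 and 154 CPM with Il-17A (-3.66 ± 0.41). Ccl11, which stood at 1438 and 1897 CPM with Il-1b and 1008 and 1160 CPM with Il-17A, differed by 0.62 ± 0.18, a call that was lost without the second Il-1b library or the first Il-17A library (down to 0.41, adjusted p up to 0.16). Interferon response genes were higher with Il-1b in 27 of 34 cases and lower in 1.

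The 2 Il-1b libraries were not interchangeable. Of 4226 called genes that averaged a log2 CPM of 3 or more, 169 differed by more than 2-fold between the 2 Il-1b libraries, and 51 between the 2 PBS libraries. The differences had no single direction. The first library was higher for Cxcl5 (log2 ratio 3.15), Cxcl13, a B cell attractant with 86.1 and 1.02 CPM (5.84), Il1rl1 at 290 and 15.9 CPM (4.15) and Mmp3, a stromelysin at 1389 and 197 CPM (2.82), all among the 10 called genes with the widest gap, as were Tnfrsf11b and Slc25a27. The second was higher for Akr1b10, Plekhh2 and Ston2 of those 10, and, less widely, for Tnfaip3 at 883 CPM against 467 CPM in the first library and Irak2 at 96.6 CPM against 39.7 CPM. Against PBS, Cxcl13 was higher in the first Il-1b library and lower in the second than in either PBS library (5.71 and 6.94 CPM), so its call (adjusted p = 0.046) rests on 1 library: without the first, the difference was -2.62 (adjusted p = 0.143). Without that library the calls of Il1rl1 (1.20), Tnfrsf11b (0.45), Akr1b10 (-0.66) and Ston2 (-0.86) were lost as well. Mmp3 stayed above both PBS libraries (47.2 and 53.3 CPM) in each, with a difference of 3.98, and of 1.97 without the first Il-1b library (adjusted p = 0.00751).

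**Figure D4:**
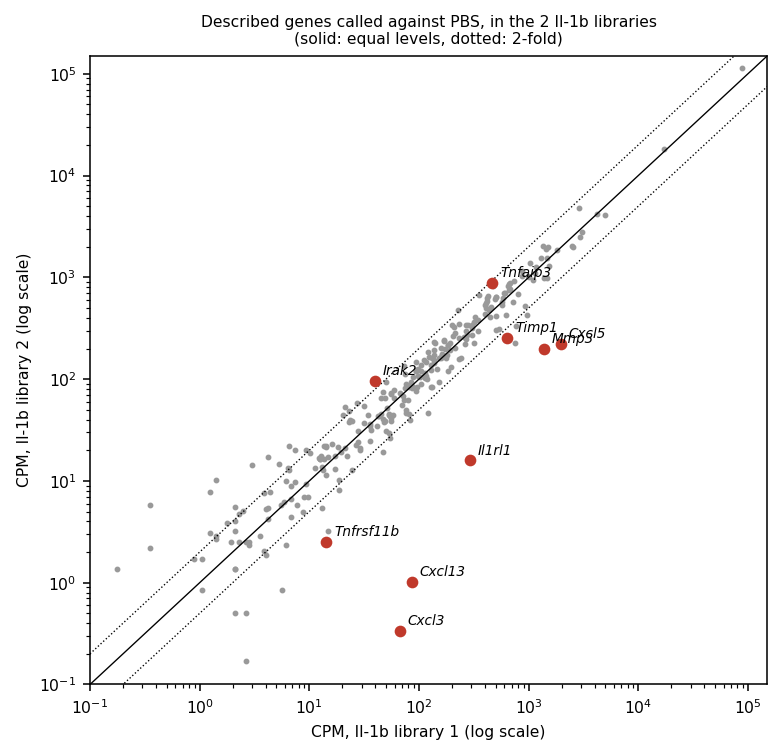
Level of the called genes described here in Il-1b library 1 against Il-1b library 2, both in CPM on log axes, with the line of equal levels. Most genes lie near the line, with Cxcl13, Cxcl3, Il1rl1, Cxcl5 and Mmp3 toward library 1 and Irak2 and Tnfaip3 toward library 2.

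The genes with the highest and lowest differences were then looked up where the cytokine was the animal's own. In MmSCs 1 day after cardiotoxin injury, Il1b itself gave 0, 0 and 1 counts in the 3 Il1b-KO libraries, against 2 and 5 in the 2 Il1b-WT libraries, too few to check the genotype labels. Between those genotypes 146 of 12102 genes were called (1.21%), 135 higher in KO (1.12%) and 11 lower (0.0909%). Of the 15 genes that were highest with Il-1b against PBS, 10 could be tested there, and 2 were called, both higher in KO and none lower. Without the first WT library Saa3 (-1.43), Csf2rb (-0.89) and Csf2rb2 (-0.81) were called lower in KO, against differences of -0.94, -0.44 and -0.48 with all 5 libraries; the same 3 were called lower where low-count genes were kept. Il6 had 554, 573 and 579 CPM in Il1b-KO cells, against 334 and 386 CPM in Il1b-WT cells (0.66 ± 0.09; adjusted p = 0.0117), and Cxcl5 5729, 6257 and 6104 CPM in KO cells, against 4659 and 4388 CPM in WT cells (0.41 ± 0.07; adjusted p = 0.0327). Cxcl1 had 7727, 7467 and 8224 CPM in KO cells, against 5610 and 6663 CPM in WT cells, and was not called (adjusted p = 0.117) except without the second WT library (0.48; 0.0156) or with low-count genes kept. Tnfaip3 had 238, 280 and 288 CPM in KO cells, against 119 and 98.4 CPM in WT cells (1.31 ± 0.12; adjusted p = 0.00315). None of the 13 tested genes among the 14 lowest named here was called in either direction, though Adam19 was called lower in KO without the second WT library (-0.53; adjusted p = 0.0423) and Slc9a3r2 higher with low-count genes kept (1.95; 0.0201). Where 1 library was left out, the count of called genes in this comparison moved between 7 (without the second KO library) and 670 (without the first WT library); it was 15 and 13 without the first and the third KO library. The calls of Il6 and Cxcl5 were each lost in some of those fits, with adjusted p up to 0.109 and 0.219, while the difference of Tnfaip3 ranged between 1.17 and 1.45 and stayed called in all 5.

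In MmSCs of injured against uninjured muscle, where 6852 of 16374 genes were called (41.8%), 8 of 13 tested genes among the 15 highest were called higher (18.2% over all genes) and none lower, with a median of 3.20 against -0.22 over all genes. Higher calls made up 43.5% of the calls in that fit, 54.0% where low-count genes were kept and 51.4% where only these 2 groups were fitted. Cxcl5 had 1865, 1550 and 1222 CPM in injured muscle, against 0.510, 0.228 and 0.225 CPM in uninjured muscle (12.05 ± 1.52; adjusted p = 7.53e-06). Of the 14 lowest named here, 8 were called lower (23.6% over all genes) and none higher, with a median of -1.25; Pthlh had 5.55, 4.56 and 5.86 CPM in injured muscle, against 97.3, 83.4 and 161 CPM in uninjured muscle (-4.41 ± 0.62). Some of the clearest Il-1b genes at 2 h were not called higher in this comparison at 1 day. Icam1 had 145, 144 and 100 CPM in injured muscle, against 96.5, 117 and 105 CPM in uninjured muscle (adjusted p = 0.464), and Tnfaip3 2.84, 8.79 and 2.38 CPM, against 4.76, 7.52 and 6.08 CPM (adjusted p = 0.50; called lower, at -1.18, without the second injured library). Hic1 was also not called (adjusted p = 0.206). Tnfaip3 stood far higher in the injured Il1b-WT libraries above, also taken 1 day after cardiotoxin, than in these injured libraries. Its level after injury thus differed between the sets of libraries, and the reason was not tested. Of 34 interferon response genes 15 were called lower 1 day after injury and 1 higher. Il-1b at 2 h against PBS, in uninjured muscle, gave 26 higher. Under the alternatives the count called lower after injury ranged between 10 (without the first uninjured library) and 22 (with DESeq2), with 0 or 1 higher.

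**Figure D5:**
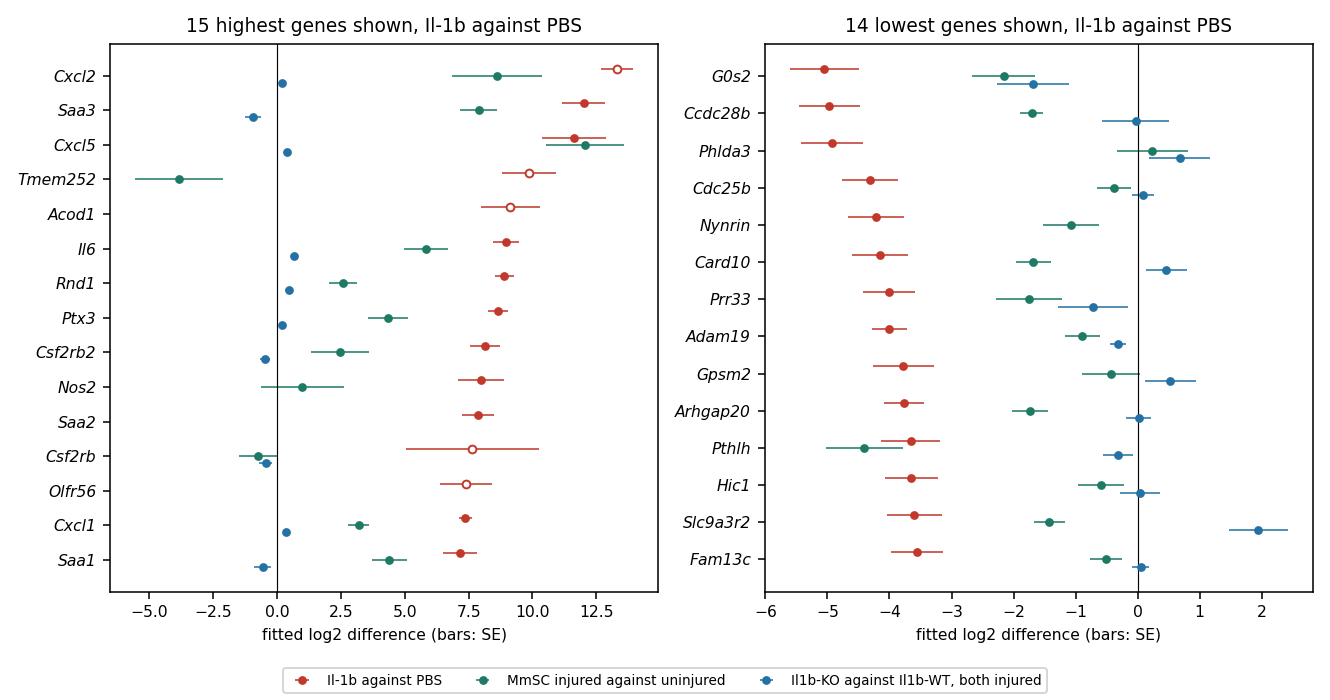
Log2 difference with its standard error for the 15 genes highest and 14 of the 15 lowest with Il-1b against PBS (red), beside the difference between injured and uninjured MmSCs (green) and between Il1b-KO and Il1b-WT injured MmSCs (blue); open symbols mark genes with no counts in PBS. The differences between genotypes range from -1.69 (G0s2) to 1.95 (Slc9a3r2), neither of them called; with injury, 8 of the 15 highest are called higher and 8 of the 14 lowest are called lower.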

How the data were processed

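RNA of sorted MmSCs was sequenced from polyadenylated transcripts. The values are raw read counts per gene in 1 table deposited by the authors, with 55011 gene symbols and 70 libraries; reads were aligned with STAR 2.7.3a to mm10 (GRCm38) and counted with featureCounts, per the submitters' processing notes. The sources used here do not state whether counting used strand, which leaves genes with an overlapping model on the other strand, among them Nop56, Gnl3, Irak2, Icam1 and Vcam1, uncertain. Totals were 5752684 to 6686420 counts for the Il-1b and PBS libraries and 2252373 to 8408842 over all 70.

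From the counts, edgeR 4.0.16 (R 4.3.3, limma 3.58.1) fitted 1 mean per group over all 21 cytokine libraries after its low-count filter (minimum count 10) and TMM scaling. The quasi-likelihood F-test was followed by Benjamini-Hochberg adjustment over all genes tested, with an adjusted p below 0.05 as the threshold for a call. CPM are these counts scaled to a common library total. The 5 Il1b-KO and Il1b-WT libraries, and the 24 libraries of sorted compartments, were each fitted on their own. The standard error of a log2 difference is its size divided by the square root of F. A gene with no counts in a group was set against a floor of 3 counts per library. The fit was run before use on counts simulated from its own model, which cannot test whether that model holds for these data. Python 3.11.15 with pandas 2.3.3, numpy 2.4.6, scipy 1.17.1 and matplotlib 3.10.9 made the other tables and the figures. Promoter sequences come from RefSeq on GRCm38.p6.

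The members and all gene lists were chosen with earlier results of these data known. The rule for naming genes took the 15 highest and 15 lowest called genes against PBS, 8 each way in the direct tests and the 10 called genes with the widest gap between the Il-1b libraries, each averaging a log2 CPM of 3 or more; other genes come from the lists. Replicates differed by more than counting noise, with a chi-square per degree of freedom of 18.878 between the Il-1b libraries and 6.921 between the PBS libraries. Alternatives were RLE size factors, DESeq2 1.42.0, no low-count filter, only the groups compared, the replicate number as a block, a robust fit for the genotypes, and leaving out each library. Some genes, 1 of the 15 lowest among them, are not reported here.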

Additional observations from a re-analysis of the deposited data

Results flagged for a closer look

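Each result below was singled out because Il-1b and another cytokine moved the gene in opposite directions against PBS, each past an adjusted p of 0.05, and the direct test between the 2 cytokines also passed it. Both directions against PBS use the same 2 PBS libraries, while the direct difference uses none.

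Against Osm, the difference was 6.96 on the log2 scale for Tnfaip3, the ubiquitin editor A20, which rose by 5.43 with Il-1b and fell by 1.54 with Osm. Irak2 differed by 6.70: it had 39.7 and 96.6 CPM (read counts scaled to a common library total) with Il-1b and 0 and 1.26 CPM with Osm. Slc43a2, a transporter of large neutral amino acids, differed by 6.71, at 34.2 and 44.0 CPM with Il-1b and 0 and 0.701 CPM with Osm, and Vcam1 by 4.43. Smaller differences in that direction were 3.33 for Dusp8, 2.07 for the homeobox factor Meox1 and 0.93 for Dusp3. The interferon response genes Cmpk2 and Ifit2 ran the other way: Cmpk2, a mitochondrial nucleotide kinase, by -3.77, at 9.35 and 9.31 CPM with Il-1b and 127 and 128 CPM with Osm, and Ifit2 by -2.79.

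Against Il-17A, the aggrecanase Adamts4 differed by 5.38, at 343 and 378 CPM with Il-1b and 11.9 and 5.06 CPM with Il-17A. The interferon response genes Stat2 and Oasl2 differed by 1.72 and 1.35, and Il6st, which encodes gp130, by 1.40. Klf4, a transcription factor, differed by -1.52, being lower with Il-1b.

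Against PBS, some of these changes with Il-1b were small and rested on the 2 libraries of each group together. Where 1 library was left out, Dusp3 was not called in any of the 4 fits (0.33 to 0.48 on the log2 scale, adjusted p = 0.0617 to 0.213), and Dusp8 (1.11 at the lowest), Meox1 (0.62), Oasl2 (0.14) and Il6st (0.34) lost the call in 2 or 3 of the 4. The direct tests between the cytokines kept their calls in those fits. The changes with Osm and with Il-17A against PBS were not refitted without a library. Whether that side of each flag rests on a single library was therefore not tested.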

How the results depend on the processing

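For Il-1b against PBS, 5288 genes were called, 5308 with RLE size factors, 5115 with DESeq2, 4942 without the low-count filter, 4608 with only the 2 groups fitted, and 3880 to 4551 where 1 library was left out. Of 199 genes that were picked by the naming rule or named in the text and could be tested against PBS, 177 were called, and 24 of these lost the call in at least 1 alternative, 10 in one other than leaving out a library. Among the called ones, Cxcl13 alone turned its direction: leaving out 1 library moved it between -2.62 (without the first Il-1b library) and 3.76. Of the 20 list counts of at least 5, 172 of 180 values under an alternative lay within 1.5 times the value given.

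Against TNFa the 1649 calls were 602 with only the 2 groups fitted and 784 to 1467 where 1 library was left out. The 1540 against Osm ranged between 1010 and 1515, and the 4054 against Il-17A between 2670 and 3455, where 1 library was left out. The 146 calls between Il1b-KO and Il1b-WT were 249 with DESeq2, 594 without the low-count filter and 7 to 670 where 1 library was left out. Fewer libraries and another set of tested genes are part of these alternatives by construction; beyond that the cause was not tested.

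Replicate numbers are shared between groups, but nothing in the labels ties them to a batch or animal, and the differences between same-numbered libraries correlated at r = 0.069 over 8926 genes for Il-1b and PBS and at 0.119 for Il-1b and TNFa. With the replicate number as a block the counts were 5317 against PBS, 1697 against TNFa, 1578 against Osm, 4081 against Il-17A, 101 between genotypes and 6698 with injury.

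With 2 libraries a group and totals of 5752684 to 6686420 counts, genes at a few counts in either group carry wide errors: Ccl5, Ccl20, Cxcl3 and Csf2rb rest on 1 or 2 libraries, and Tnf was too low to test.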
